A study of Homo sapiens with 4 samples.

Results

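Peaks of IGF2BP2 iRIP-seq were described on 10 genes that encode core proteins of the spliceosome: PRPF8, SNRNP200, EFTUD2, PRPF6, SF3B1, SF3B2, SF3B3, SF3A1, U2AF2 and SNRNP70. The genes were taken from a list of names that was chosen with earlier results of these data known. Their peaks were the sense peaks that the authors' lists assign to the Ensembl gene of each member, with its position checked on GRCh38. All 10 were found, among 20428 gene identifiers with a sense peak in at least 1 of the lists. A sense peak is one whose main region, the region with the largest share of its length, was CDS (coding sequence), UTR, noncoding exon or intron on the strand of the gene.

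IGF2BP2 is an RNA-binding protein and a reader of N6-methyladenosine in mRNA, and iRIP-seq is a UV-crosslinking immunoprecipitation followed by sequencing of the bound RNA. The study used Jurkat cells, an established human T-cell leukaemia line, with no treatment named in the labels and with 2 IGF2BP2 immunoprecipitation libraries and 2 input libraries, all of 1 cell line and 1 growth condition. The peak lists of the 2 immunoprecipitations were used and the inputs were not analysed here, so a peak number is not set against the abundance of its mRNA, and stronger binding and more RNA cannot be told apart. The authors had removed peaks that overlap input peaks, so a place without a listed peak in 1 or both lists may have held a removed peak. The sources used here do not say whether the libraries came from separate cultures, so the spread between them may be technical.

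Replicate 1 had 145715 listed peaks, 74237 of them sense peaks, and replicate 2 had 137934, with 77288 sense peaks. Height is the deposited signal of a peak in tags. In longer peaks it equals a mean over bins, the equal steps that make up a peak, and is not a total. Heights ran from 4 to 91 in replicate 1 and from 5 to 191 in replicate 2. Library depths are unknown, so heights were left unadjusted. Of 9 T cell marker genes, 9 had an exonic sense peak in at least 1 list and 6 in both, whereas 0 of 9 markers of B, myeloid, erythroid and epithelial cells had one.

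The spliceosome removes introns from pre-mRNA. U1 snRNP, which contains the SNRNP70 protein, recognises the 5′ splice site, U2AF2 binds the polypyrimidine tract, and U2 snRNP with its SF3a and SF3b subcomplexes engages the branch point. The U5 proteins PRPF8, SNRNP200 and EFTUD2 then form, with PRPF6 and the U4/U6 particle, the tri-snRNP from which the active spliceosome is made.

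Peaks lay near the start of some of these genes. The sequences that the RefSeq promoter windows (GRCh38.p14) hold under such peaks are shown for SF3B1 and U2AF2, where the same peak was listed in both replicates. They are written 5′ to 3′ on the strand of the gene, and capitals mark the start codon, at the base where the authors' region shares place the first base of CDS.
SF3B1, chr2:197434979-197435000, minus strand: aATGgcgaagatcgccaagact
U2AF2, chr19:55655055-55655084, plus strand: gcggcaaggcgaggcgaaagctgcacaggg
The SF3B1 bases are the 5′ end of a peak at chr2:197434950-197435000 that runs from the last base of the 5′ UTR through the first codons into the intron, with 5 tags in replicate 1 and 9 in replicate 2. The U2AF2 bases lie under a peak with 8.50 tags in replicate 1 and 10 in replicate 2. The motif GGAN, in which N is any base, was searched on the strand of the gene only. Both sequences held 0 matches, and the rest of each peak was not searched. Among the last 22 bases of all 35116 promoter windows 36.9% held it, and among the last 30 bases 49.7%.

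The 10 genes carried 187 sense peaks in replicate 1 and 204 in replicate 2, a mean of 195.5 ± 12.0 (SD, n = 2). All 10 had sense peaks in both lists, beside 59.5% of all identifiers and 81.6% of the 7980 identifiers with a peak mainly in CDS or UTR. A median of 15.5 peaks per member in replicate 1 and 16.5 in replicate 2 stood beside 2 and 2 over all identifiers. As the members were chosen with earlier results known, these values describe the 10 genes and are no test against all identifiers. PRPF8 and SNRNP200 together held 81 of the peaks (43.3%) in replicate 1 and 92 (45.1%) in replicate 2. Peak numbers were higher in replicate 2 for 8 members and lower for 2, SF3B1 and PRPF6.

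The order of the members by peak number was led by PRPF8 (47 ± 5.66, SD, n = 2) and SNRNP200 (39.5 ± 2.12), whose values did not overlap. SF3B2 followed with 18.5 ± 0.707, and its values lay above those of U2AF2 (16.5 ± 0.707) but met those of SNRNP70 at 18 peaks. U2AF2, SNRNP70 (16.5 ± 2.12) and PRPF6 (15.5 ± 2.12) overlapped one another, as did SF3A1 (13.5 ± 0.707) with both PRPF6 and SF3B3 (13 ± 4.24). The values of SF3B3 also overlapped those of U2AF2, SNRNP70 and PRPF6. EFTUD2 (8.50 ± 0.707) and SF3B1 (7 ± 2.83) held the fewest, with overlapping values. Over the 10 genes the peak numbers of the replicates had a Pearson r of 0.977 and a Spearman rho of 0.863, which describe these 10 genes only. Per 10 kb of gene, introns included, SF3B2 came close to the leading pair, and EFTUD2, SF3B1 and SF3B3 stayed below 3 peaks in both replicates.

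PRPF8, which lies at the catalytic centre of the spliceosome, is ENSG00000174231.17 on the minus strand of chromosome 17 (1650629 to 1684867, GRCh38.p14, 34.2 kb). It carried 43 peaks in replicate 1 and 51 in replicate 2, or 12.6 and 14.9 per 10 kb. As many peaks were found for only 0.591% of the identifiers with sense peaks in replicate 1 and 0.581% in replicate 2. CDS was the main region of 31 and 38 of its peaks, and 42 and 48 touched CDS. Its median height was 6.50 tags in replicate 1 and 9 in replicate 2, and 13 and 21 peaks reached 10 tags.

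The highest overlapping pair of PRPF8, ranked by the lower of both heights, lay at chr17:1675150-1675200, almost wholly in CDS (0.98 of its length), with 15 tags in replicate 1 and 26 in replicate 2. The tallest peak of all 10 genes in replicate 2 stood near the start of PRPF8 (chr17:1684450-1684500), with 38 tags there and 14 in replicate 1. In replicate 1 the tallest PRPF8 peak, chr17:1680700-1680750, had 16 tags and was not overlapped by replicate 2. Another PRPF8 site, at chr17:1676500-1676550, had 7 and 33 tags, the largest ratio between the replicates among the overlapping peaks of the members (4.71). The listed peaks of PRPF8 fell in 2 stretches on either side of 7.60 kb without a sense peak in either list (chr17:1665450-1673050). Such stretches were not set against exon positions, here or on the other members.

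SNRNP200, the helicase that unwinds U4 from U6, is ENSG00000144028.15 on the minus strand of chromosome 2 (96274338 to 96305546, 31.2 kb). It carried 38 peaks in replicate 1 and 41 in replicate 2, or 12.2 and 13.1 per 10 kb. Of these, 27 and 26 were mainly CDS, and 37 and 36 touched CDS. Median heights were 6 and 8 tags, and 6 and 16 peaks reached 10 tags. The highest pair covered the same bin at the 5′ end of the gene in both replicates (chr2:96305350-96305400), with 17 tags in replicate 1 and 16 in replicate 2, and 0.16 of its length in CDS and 0.84 in intron. Its longest stretch without a sense peak was 2.30 kb, the shortest such stretch of the 10 genes.

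EFTUD2, the GTPase of U5, is ENSG00000108883.13 on the minus strand of chromosome 17 (44849948 to 44899445, 49.5 kb). It had 8 peaks in replicate 1 and 9 in replicate 2, or 1.62 and 1.82 per 10 kb, with a median height of 5 tags in both. None reached 10 tags in either list, and 14.5% and 13.8% of identifiers held as many peaks. A single bin was shared by the replicates, at chr17:44894400-44894450 with 7 and 8 tags, which were also the tallest EFTUD2 peaks of each list. EFTUD2, PRPF8 and SNRNP200 all encode proteins of the U5 snRNP, but the peaks counted here lie on the RNAs of the genes. The EFTUD2 number was low beside those of PRPF8 and SNRNP200, whereas the median over all identifiers was 2 in both replicates.

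PRPF6, which bridges U5 and U4/U6, is ENSG00000101161.8 on the plus strand of chromosome 20 (63981132 to 64033100, 52.0 kb). It had 17 peaks in replicate 1 and 14 in replicate 2, or 3.27 and 2.69 per 10 kb. CDS was the main region of 8 and 9 and intron of 9 and 5, of which 3 and 1 lay wholly in intron. The tallest peak had 10 tags in replicate 1 and 24 in replicate 2. The latter was part of the highest pair, chr20:63984900-63984950, which had 7 tags in replicate 1 and 0.88 of its length in CDS.

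**Figure D1:**
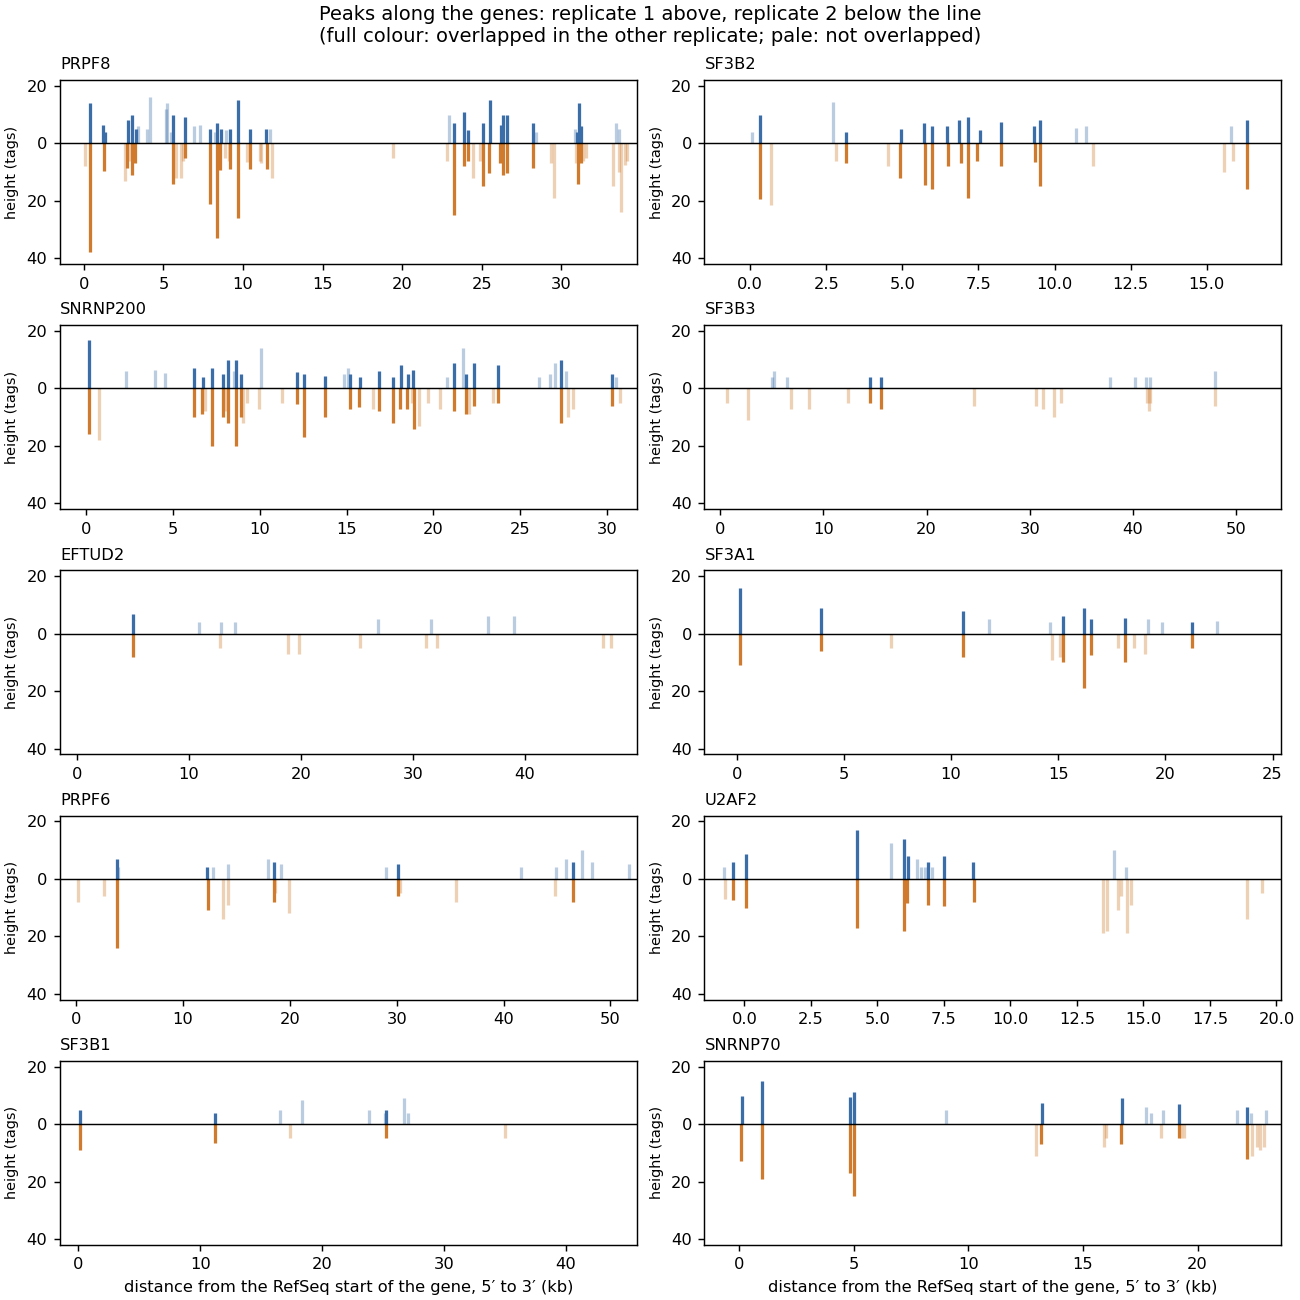
Height in tags of every sense peak against the distance of its middle from the RefSeq start of the gene, in kb from 5′ to 3′, with replicate 1 above and replicate 2 below the line (both axes linear, height axis shared by the 10 genes). Full colour marks peaks that overlap between the replicates. A reader should see the pairs of full-coloured lines along PRPF8, SNRNP200 and SF3B2, and the few peaks of EFTUD2, SF3B1 and SF3B3.

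SF3B1, the large scaffold of SF3b that encloses the branch point adenosine, is ENSG00000115524.17 on the minus strand of chromosome 2 (197389784 to 197435093, 45.3 kb). It carried 9 peaks in replicate 1 and 5 in replicate 2, or 1.99 and 1.10 per 10 kb, the fewest of the members in replicate 2. Of these, 8 and 4 were mainly CDS. Its tallest peaks had 9 tags in both replicates, but at different places: the start codon peak shown above in replicate 2, and chr2:197408350-197408400 in replicate 1, where replicate 2 had no overlapping peak. The replicates shared 3 sites, among them chr2:197409800-197409900 in replicate 1, with 5 tags, and chr2:197409850-197409900 in replicate 2, with 5 tags, wholly in CDS. Between the start codon peak and the next one lay 11.1 kb without a sense peak in either list (chr2:197423900-197434950), the longest such stretch of the 10 genes.

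SF3B2, another SF3b subunit, is ENSG00000087365.16 on the plus strand of chromosome 11 (66052364 to 66069308, 16.9 kb) and is the shortest gene of the members. It had 18 peaks in replicate 1 and 19 in replicate 2, or 10.6 and 11.2 per 10 kb. Every one of them touched CDS, and CDS was the main region of 15 in each replicate. The tallest reached 14.5 and 21.5 tags. Of all members it had the largest share of peaks overlapped by the other replicate, 13 of 18 (72.2%) and 13 of 19 (68.4%). The highest pair was chr11:66052650-66052700 with 10 tags in replicate 1 and chr11:66052650-66052750 with 19.5 in replicate 2.

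SF3B3, which is also part of SF3b, is ENSG00000189091.13 on the plus strand of chromosome 16 (70523816 to 70577668, 53.9 kb). It had 10 peaks in replicate 1 and 16 in replicate 2, or 1.86 and 2.97 per 10 kb, and the widest spread of peak numbers after PRPF8. CDS was the main region of 7 in each replicate, and intron of 2 and 8. Its tallest peaks had 6 and 11 tags, the lowest maximum of the members in replicate 1. Only 2 sites were shared, chr16:70538300-70538350 with 4 and 5 tags and chr16:70539400-70539450 with 4 and 7 tags, and the latter was the only shared site of the 10 genes that lay wholly in intron.

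SF3A1, a subunit of SF3a, is ENSG00000099995.19 on the minus strand of chromosome 22 (30331988 to 30356894, 24.9 kb). It carried 13 peaks in replicate 1 and 14 in replicate 2, or 5.22 and 5.62 per 10 kb. Mainly CDS were 9 and 6, and mainly intron 2 and 6. Its highest pair, at chr22:30356700-30356750 by the start of the gene, had 16 tags in replicate 1 and 11 in replicate 2, with 0.42 of its length in CDS. A second site, chr22:30340650-30340700, reached 9 and 19 tags, and the authors' annotation places 0.88 of it in noncoding exon.

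U2AF2, the large subunit of the factor that binds the polypyrimidine tract, is ENSG00000063244.13 on the plus strand of chromosome 19 (55655035 to 55674716, 19.7 kb). It had 16 peaks in replicate 1 and 17 in replicate 2, or 8.13 and 8.64 per 10 kb. Its highest pair, chr19:55659200-55659300 in replicate 1 and chr19:55659200-55659350 in replicate 2, reached 17 tags in both and lay mostly in CDS (0.91). The 8 pairs of overlapping peaks all ended by chr19:55663750. Beyond a stretch of 4.75 kb without sense peaks (chr19:55663750-55668500), replicate 2 had peaks of up to 19 tags, whereas replicate 1 had only peaks wholly in intron, of 10 tags (chr19:55668900-55668950) and 4 tags (chr19:55669350-55669400), and none of either list overlapped. In replicate 2 the peaks there with 19 tags were chr19:55668500-55668550 and chr19:55669400-55669450.

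Some U2AF2 peaks carried UTR labels away from the ends of the RefSeq gene. The authors' annotation gave 3 peaks of each list as mainly 5′ UTR, of which 2 in each list lay before the RefSeq start of the gene. A peak at chr19:55661900-55661950, within the gene, was given as mainly 3′ UTR and had 6 tags in replicate 1 and 9 in replicate 2.

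SNRNP70, the U1 protein, is ENSG00000104852.15 on the plus strand of chromosome 19 (49085451 to 49108604, 23.2 kb). It had 15 peaks in replicate 1 and 18 in replicate 2, or 6.48 and 7.77 per 10 kb, and 6 and 10 were mainly CDS. The highest pair, chr19:49086400-49086550, had 15 and 19 tags with 0.91 of its length in CDS, and the tallest peak of replicate 2, chr19:49090450-49090500, had 25 tags against 11 in replicate 1. Peaks given as mainly 3′ UTR numbered 3 in replicate 1 and 0 in replicate 2, although 1 of these 3 overlapped a replicate 2 peak given as mainly CDS.

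CDS was the main region of 121 of the 187 member peaks in replicate 1 (64.7%, 95% Wilson interval 57.6 to 71.2) and of 129 of 204 in replicate 2 (63.2%, 56.4 to 69.6). The intervals take in counting error alone, and reads without molecular identifiers can be PCR copies of 1 molecule. The share differed by -1.47 percentage points between the replicates (two-sided Fisher's exact test, p = 0.833, which compares these libraries). The test takes peaks as independent, although many are the same site in both lists. Its p-value is therefore no measure of the spread between libraries. Over all identifiers 19.9% and 25.6% of the sense peaks were mainly CDS, and 69.2% and 62.4% mainly intron. On the members 45 peaks (24.1%) and 53 (26.0%) were mainly intron, and 30 and 38 of these also touched CDS. Wholly in intron lay 15 (8.02%) and 13 (6.37%) of the member peaks, against 62.8% and 53.9% over all identifiers. Mainly 5′ UTR were 4 and 5 of the member peaks, mainly 3′ UTR 6 and 3, and mainly noncoding exon 11 and 14.

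On the members the CDS share of high peaks was close to that of all their peaks, whereas over all identifiers it was higher among high peaks. Among peaks of at least 10 tags, 62.1% of 29 and 60.6% of 71 member peaks were mainly CDS, beside 58.6% and 60.0% over all identifiers. Such peaks made up 15.5% and 34.8% of the member peaks and 2.73% and 8.75% of all sense peaks. Compared among peaks that touch CDS, the shares lay nearer, at 17.3% and 38.5% for the members and 8.40% and 21.0% over all identifiers. Median height was 6 and 8 tags on the members, against 4 and 5 over all identifiers. Among peaks that touch CDS it was 6 and 8 against 5 and 6.50.

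Many member peaks lay across an edge of coding sequence: 100 of 187 (53.5%) and 109 of 204 (53.4%) held both CDS and intron, against 15.5% and 21.0% over all identifiers. Compared among peaks that touch CDS, the shares lay nearer, at 61.7% and 60.9% for the members and 56.2% and 59.2% over all identifiers. Most peaks are 1 bin of 50 nt, placed at multiples of 50 nt, so a bin that holds an exon's end can take the label of the intron. The SNRNP200 and SF3A1 pairs at the start of their genes are of this kind.

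Peaks of at least 10 tags were found in both lists for 7 members (PRPF8, SNRNP200, PRPF6, SF3B2, SF3A1, U2AF2 and SNRNP70), and EFTUD2, SF3B1 and SF3B3 missed this height in at least 1 list. This was so for 3.96% of all identifiers and for 9.76% of those with a CDS or UTR peak. With exonic peaks alone, 5 members remained, without PRPF6 and SF3A1, and the share of all identifiers at that setting was not calculated. An identifier with many peaks has more chances to hold a high one, and the members were not compared with identifiers of equal peak number.

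All 10 members had at least 1 pair of peaks that overlapped between the replicates by at least 1 bp on the same strand. This held for 16.4% of all identifiers and 38.3% of those with a CDS or UTR peak. With a minimum of 5 tags 9 members had such a pair, and with a p-value under 0.001 8 members. Shares of all identifiers at these settings were not calculated, and 16.4% and 38.3% are not their background. An identifier with many peaks has more chances to hold a pair, and identifiers of equal peak number were not compared. Of the single peaks, 99 of 187 in replicate 1 (52.9%, 45.8 to 60.0) were overlapped by replicate 2, and 97 of 204 in replicate 2 (47.5%, 40.8 to 54.4) by replicate 1. Over all identifiers the shares were 16.6% and 15.8%. Among peaks that touch CDS, they were 58.6% and 52.0% on the members and 46.8% and 34.6% over all identifiers, and among peaks of at least 10 tags, with a partner of any height, 65.5% and 63.4% against 73.5% and 62.4%. With at least 10 tags required of both peaks, the members' shares were 62.1% and 25.4%. By gene, the overlapped share ran from 12.5% (EFTUD2) to 72.2% (SF3B2) in replicate 1 and from 11.1% to 68.4% in the same genes in replicate 2. Overlapped member peaks had a median height of 7 and 9 tags, and the others of 5 and 7.

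The 99 overlapping pairs comprised 27 on PRPF8, 24 on SNRNP200, 13 on SF3B2, 8 each on SF3A1, U2AF2 and SNRNP70, 5 on PRPF6, 3 on SF3B1, 2 on SF3B3 and 1 on EFTUD2. The span was identical in 57 of them, and in the others the heights were taken over different spans. Replicate 2 was higher in 81 pairs (81.8%), replicate 1 in 15, and 3 were equal, with a median ratio of 1.40. Over the 12466 pairs of all identifiers 77.8% were higher in replicate 2, with the same median ratio of 1.40. Listed heights began at 4 tags in replicate 1 and at 5 in replicate 2. A pair with under 5 tags in replicate 1 could thus only be higher in replicate 2. In 18 member pairs both peaks had at least 10 tags: 8 on PRPF8, 4 on SNRNP200, 2 each on U2AF2 and SNRNP70, and 1 each on SF3B2 and SF3A1.

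A list of 58 other spliceosome genes was set beside the members. Of these, 52 could be matched to an identifier with a sense peak, 43 had sense peaks in both lists and 9 in 1 list. An overlapping pair was held by 29, and a sense peak with 10 tags or more in each list by 7. Over all identifiers, 59.5% had sense peaks in both lists, 16.4% an overlapping pair and 3.96% such a height in each list. Among identifiers with a CDS or UTR peak these shares were 81.6%, 38.3% and 9.76%. Of their 238 peaks in replicate 1 and 285 in replicate 2, 49.2% and 54.7% were mainly CDS and 43.3% and 36.5% were overlapped. By the lower of both maximum heights the leading genes were SNRPD2, a core Sm protein (21 tags in replicate 1 and 33 in replicate 2), and SF3A2, the partner of SF3A1 in SF3a (16 and 24). SF1, the first branch point binding protein, had maxima of 15.5 and 52 tags, DDX23, a U5 helicase, 13 and 19, PRPF19, a ubiquitin ligase of the spliceosome, 13 in both, and SART1, a tri-snRNP protein, 11 and 18. SNRPD2 reached its heights with 4 and 6 peaks, and SF1 with 18 and 13.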

How the data were processed

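IGF2BP2 iRIP-seq was deposited as 1 peak list per immunoprecipitation. Paired reads of 150 bp were aligned by the authors to GRCh38 with TopHat 2 (per the submitters' processing notes), and uniquely mapped reads were kept. Peaks were called by ABLIRC in each library against 500 random read placements per gene, at a threshold of 0.05 on the p-value, and those overlapping input peaks were removed. Peak height is a deposited signal in tags, and in longer peaks equals a mean over 50 nt bins (height times bins was whole in 100% of peaks, tolerance 0.01). The highest deposited p-value was 0.00759 in replicate 1 and 0.00437 in replicate 2, and p-values were used only as a filter. Region shares and gene identifiers are the authors' own, and ties between regions were counted as CDS. The annotation version is not given in the sources used here. Positions are printed as deposited and read as half-open intervals.

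Members were matched by Ensembl identifier and position, and other genes by position in the RefSeq table (margin 1000 nt, at least 80% of exonic peaks). The members and lists were chosen with earlier results of these data known. Single peaks named are, for each member, the highest overlapping pair by the lower height; the 6 other genes named have the highest lower maximum, and further peaks were named after their values were seen. The sequence under 1 peak is not reported here. Shares have 95% Wilson intervals. Python 3.11.15, pandas 2.3.3 and scipy 1.17.1 were used. Overlap and naming functions were tested on simulated data, with 8000 of 8000 overlaps and 300 of 300 genes right. Alternatives were minimum heights of 5 and 10 tags, a p-value under 0.001, exonic peaks only, weighting by length, other definitions of overlap, and each replicate left out.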

Additional observations from a re-analysis of the deposited data

How the results depend on the processing

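Of 59 recalculations of 12 results, 40 kept their direction and stayed within the limits set for a change. A minimum height of 10 tags in both lists left 29 member peaks in replicate 1, 71 in replicate 2 and a mean of 50, with 6 members holding an overlapping pair, 7 other spliceosome genes with peaks in both lists, and overlapped shares of 62.1% and 25.4%, where the partner peak also had at least 10 tags. A p-value under 0.001 left 83 and 121 peaks (mean 102), 24 other spliceosome genes in both lists and 35.5% of replicate 2 member peaks overlapped. These settings keep fewer peaks by construction. Apart from peaks of at least 10 tags in both lists, shares of all identifiers at these settings were not calculated. The difference in CDS share, -1.47 points, changed sign to 2.50 at a p-value under 0.001 (two-sided Fisher's exact test, p = 0.772). It also changed sign, to 0.219, with exonic peaks only (exact p = 1). These tests too take peaks as independent, and the cause of the changes was not tested. Exonic peaks only raised the CDS shares to 85.2% and 85.4%, since intron peaks leave the denominator. A minimum of 5 tags gave 61.2% of replicate 1 peaks overlapped, and counting peaks that touch gave 61.0% and 55.9%. Leaving out each replicate gave 187 to 204 peaks on the members. No paired analysis was possible because the inputs that share replicate numbers with the immunoprecipitations were not analysed here. Depth per library is unknown, and a single minimum height is passed more easily by the library with more reads.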

Other observations

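On the opposite strand of the members, the lists gave 6 antisense peaks on 4 members in replicate 1 and 10 on 7 members in replicate 2, each of 4 to 6 tags. Over the whole lists 19.9% and 16.8% of peaks were antisense, which is a share of peaks and not of identifiers. The share of all identifiers with an antisense peak was not calculated, so the numbers of members have no background here. PRPF8 had 3 in replicate 1 (chr17:1656250-1656300, chr17:1675800-1675850 and chr17:1676250-1676300) and 1 in replicate 2 (chr17:1668800-1668850). Within the interval of U2AF2, replicate 1 also had 3 peaks of 4 tags each in introns of ENSG00000267523.1, a gene on the minus strand.

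Matching by position found no identifier with a sense peak for some of the listed spliceosome genes. Among these were SNRPB2 and SNRPF, both snRNP proteins, LSM5 and LSM6 of the U6 ring, and PLRG1 of the PRPF19 complex. Sense peaks under an identifier that failed the matching rule would not have been counted. No depth or RNA abundance is known for these genes, and a missing match sets no limit on binding.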
